A study of Mus musculus with 8 samples.

Results

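The 8 genes described here encode platelet receptors with inhibitory or related motifs in their tails, and phosphatases that inhibitory motifs dock: Pecam1, Ceacam1, Treml1, Cd84, Slamf1, Ptpn6, Ptpn11 and Inpp5d. They were chosen by symbol, and all 8 were found among the 55487 genes measured. RNA was sequenced from platelets of 4 male mice labelled Dnmt3a+/-, heterozygous for Dnmt3a, whose product sets new DNA methylation, and of 4 male mice labelled WT, described as littermates. All 8 mice were 13 weeks old, and each gave 1 library of polyadenylated RNA. Platelets came from blood drawn from the heart, after beads against Ter119 and CD45 had removed red cells and leukocytes. How the mutant allele was made and in which cells it acts are not given in the sources used here.

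Platelets are anucleate cells shed by megakaryocytes, and their activating receptors signal through an immunoreceptor tyrosine-based activation motif, the ITAM. The opposing receptors carry an inhibition motif, the ITIM, in their cytoplasmic tail. Src family kinases phosphorylate it, and it then docks phosphatases with SH2 domains, SHP-1 (Ptpn6), SHP-2 (Ptpn11) and SHIP-1 (Inpp5d), which remove phosphate from signalling proteins or from the lipid PIP3. PECAM-1 and CEACAM1 are such receptors and restrain platelet responses to collagen. TLT-1, the product of Treml1, carries an ITIM, is stored in alpha granules and is reported to favour aggregation. CD84 and SLAMF1 (CD150) are SLAM family receptors that bind their own kind on a neighbouring cell and carry a related switch motif, the ITSM.

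Total counts ran from 15620972 to 22160394 in the libraries labelled Dnmt3a+/- and from 15185218 to 17398666 in WT libraries. Dnmt3a stood at 9.96, 11.5, 24.2 and 19.5 CPM (counts per 1000000, scaled by TMM factors) in the libraries labelled Dnmt3a+/- replicates 1 to 4, against 21.1, 22.1, 19.8 and 18.2 CPM in WT replicates 1 to 4. In CPM, replicate 3 labelled Dnmt3a+/- thus lay above every WT value and replicate 4 within the WT range. In TPM (transcripts per 1000000), replicates 3 and 4 of that label (10.1 and 10.9) both lay above every WT library (5.60 to 8.91). Replicates 1 and 2 (4.67 and 3.52 TPM) lay below them. The Dnmt3a log2 fold change (Dnmt3a+/- minus WT) was -0.31 (SE 0.25, edgeR adjusted p = 0.998). The directions in the following paragraphs compare labels. WT replicate 1 held 2.03% of its counts in 9 red cell markers, against 0.203% to 0.486% in the other libraries, and WT replicate 3 held 24.8% in mitochondrial genes, against 16.7% to 19.0%. Itga2b, an integrin chain of platelets, was at 2644 ± 490 TPM in the libraries labelled Dnmt3a+/- and 2763 ± 548 TPM in WT libraries (SD, n = 4 each). The 8 platelet markers took 3.8% to 4.36% of counts in the libraries labelled Dnmt3a+/- and 3.51% to 4.12% in WT libraries. Of 14 leukocyte markers, Cd3e had 0 counts in every library, and the whole list took 0.000781% to 0.00196% and 0.00108% to 0.00155% of counts under the same labels. Of 13 hepatocyte markers 10 were tested and all 10 had an unadjusted p under 0.05 and lower values in the libraries labelled Dnmt3a+/- (Apoa2, Trf and Ttr by p, with edgeR adjusted p = 0.647), where 4.92% of all genes tested had such a p. WT replicate 1 stood apart from the other WT libraries, with 0.00189% of counts in hepatocyte markers against 0.0381% to 0.155%. Its share lay below replicates 1 and 3 labelled Dnmt3a+/- (0.0106% and 0.0142%) and above replicates 2 and 4 of that label (0.000302% and 0.000352%). Without WT replicate 1, Apoa2, Trf and Ttr had edgeR adjusted p = 0.0158, 0.0177 and 0.0311. Red cell markers gave 2 genes of 7 tested at an unadjusted p under 0.05, Bpgm and Alas2, whose log2 fold changes of -2.24 and -2.81 turned to 0.39 and 1.17 without WT replicate 1. Endothelial markers gave 1 of 10, Eng, too few genes to set against the 4.92% of all genes, and 9 of the 10 had negative fold changes (median -0.18). In bulk RNA, fewer cells of a type and less RNA per cell cannot be told apart.

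The 8 genes spanned a wide range of levels. By mean TPM (transcripts per 1000000, which corrects for length) over the 8 libraries, Treml1 came first at 1409.9 ± 321.96 and ranked 90 among all genes. Cd84 followed at 852 ± 64.1 (rank 130), Pecam1 at 402 ± 33.2 (rank 256), Slamf1 at 379 ± 50.9 (rank 273) and Ptpn11 at 259 ± 20.2 (rank 350). Ceacam1 stood at 87.6 ± 8.91 (rank 682), Inpp5d at 45.4 ± 8.09 (rank 993) and Ptpn6 at 0.524 ± 0.664 (rank 6960; SD over 8 libraries throughout). Each gene lay above the next in all 8 libraries, with 1 exception. Pecam1 exceeded Slamf1 in 7 of 8, by a median of 0.0938 on the log2 scale, and the order was turned in the library labelled Dnmt3a+/- replicate 2, so these neighbours did not differ beyond their spread.

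**Figure D1:**
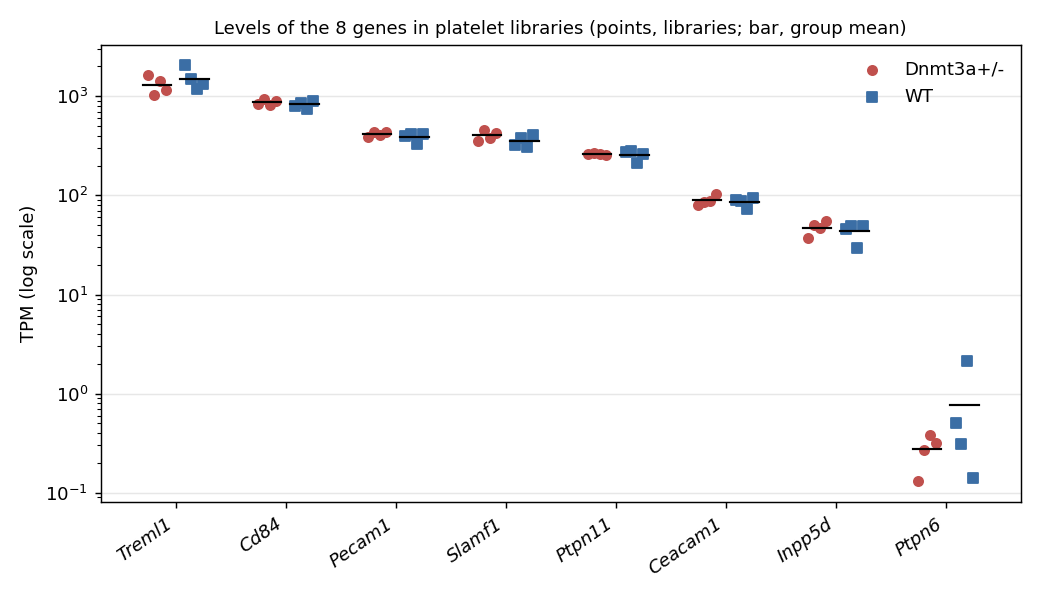
TPM of each gene in each library on a log axis, with circles for libraries labelled Dnmt3a+/-, squares for WT libraries and a bar at each group mean. Treml1 sits highest at a mean of 1409.9 TPM, 7 genes lie above 29 TPM in every library, and Ptpn6 lies at 0.13 to 2.14 TPM.

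Of the 8 genes, the 7 that could be tested did not differ between the labels beyond the spread of replicates. The fit with edgeR over 7362 genes, which tested 7 of the 8 (Ptpn6 had too few counts), called 0 of the 7 at an adjusted p under 0.05, where 0% of all genes tested were called. At an unadjusted p under 0.05 it gave 0 of 7, against 4.92% of all genes, and limma also called 0. DESeq2 called 0 of 8 (0.164% of all genes), as did edgeR without a filter on low counts (1.35% of all genes), and without WT replicate 1 it called 0 of 7 (1.75% of all genes). In 0 of 7 did the 4 values of one label lie clear of the other 4, against 2.54% of all genes. The 7 had 4 positive and 3 negative log2 fold changes (Dnmt3a+/- minus WT, median 0.0575, median SE 0.0903), and all genes tested had a median of -0.005 and a median SE of 0.222, with 49% positive. The estimates of these abundant genes were narrow: leaving out Treml1, every 95% interval lay between -0.217 (Ceacam1) and 0.383 (Slamf1) on the log2 scale.

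**Figure D2:**
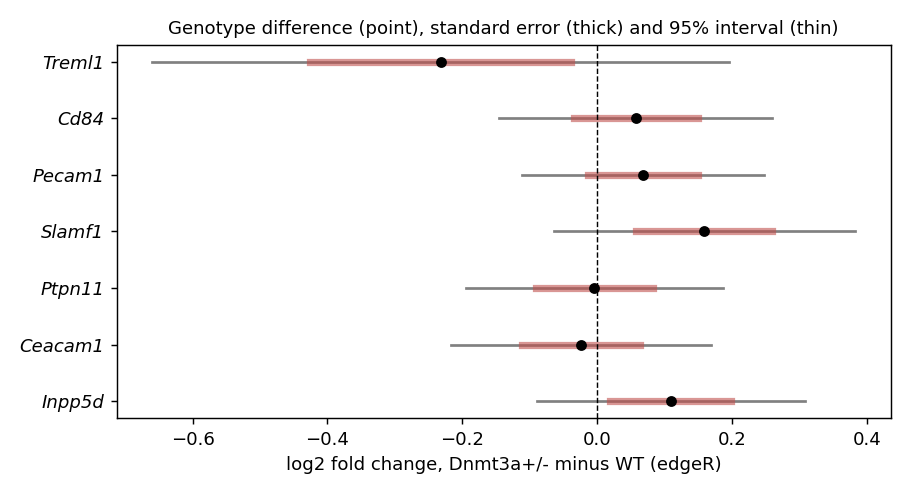
Log2 fold change (Dnmt3a+/- minus WT) of the 7 tested genes from the edgeR fit, with the SE as a thick bar and the 95% interval as a thin line. All 7 intervals span 0, and that of Treml1, from -0.66 to 0.20, is the widest.

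Among the ITIM receptors, Pecam1 varied least. Pecam1 (chromosome 11, 106654217 to 106750628, minus strand, GRCm38) held 1100.3, 1133, 1109 and 1082 CPM in the libraries labelled Dnmt3a+/- replicates 1 to 4, against 1107, 1028, 998 and 1089 CPM in WT replicates 1 to 4. All 4 libraries labelled Dnmt3a+/- lay above the WT median, yet the ranges overlapped, and the coefficient of variation over 8 libraries was 4.18%. Its log2 fold change was 0.07 (SE 0.08, edgeR adjusted p = 0.998), with a 95% interval of 0.925 to 1.19 as a fold. Pecam1 is also a defining gene of endothelium. The 13 endothelial markers together took 0.00471% to 0.00639% of counts in the libraries labelled Dnmt3a+/- and 0.00555% to 0.00802% in WT libraries, and 0 of the 13 was at 0 counts in every library. Cdh5, the cadherin of endothelial junctions, lay at 0.37 to 0.94 TPM and 0.45 to 1.47 TPM under the same labels, where Pecam1 lay at 391 to 433 TPM and 329 to 417 TPM. Kdr, a VEGF receptor gene of endothelium, lay at 1.73 to 2.04 TPM and 1.19 to 2.38 TPM.

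Ceacam1 (chromosome 7, 25461707 to 25477603, minus strand) was at 216, 201, 222 and 244 CPM in the libraries labelled Dnmt3a+/- replicates 1 to 4, against 233, 214, 221 and 230.4 CPM in WT replicates 1 to 4. The values of WT libraries fell inside the range of the other group. The log2 fold change was -0.02 (SE 0.09, edgeR adjusted p = 0.998), and its sign turned under other scalings. Its paralog Ceacam2, which lies 38439 bases away on the same strand, was at 1.2 ± 0.49 TPM in the libraries labelled Dnmt3a+/- and 1.33 ± 0.48 TPM in WT libraries, against 89.0 ± 10.1 TPM and 86.1 ± 8.83 TPM for Ceacam1 (SD, n = 4 each). Reads shared by these similar genes could be divided between them in counting, so the low Ceacam2 values are uncertain, and the part of such reads was not tested. Within libraries the log2 ratio of Ceacam1 to Ceacam2 averaged 6.16 ± 0.608 in the libraries labelled Dnmt3a+/- and 5.97 ± 0.445 in WT libraries (exact two-sided permutation p = 0.629, adjusted over 3 ratios 0.629).

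Treml1 (chromosome 17, 48359916 to 48367176, plus strand) was the most variable of the 7, with a coefficient of variation of 24.3% over 8 libraries. It held 1654, 993, 1406 and 1066 CPM in the libraries labelled Dnmt3a+/- replicates 1 to 4, against 2058, 1329, 1350.2 and 1275 CPM in WT replicates 1 to 4. The highest value belonged to WT replicate 1, the library rich in red cell markers, and the lowest 2 to replicates 2 and 4 of the libraries labelled Dnmt3a+/-. The log2 fold change was -0.23 (SE 0.19, edgeR adjusted p = 0.998). It was -0.04 without WT replicate 1, and the part of red cell RNA in this value was not tested. G6b-B, an ITIM receptor of megakaryocytes and platelets encoded by Mpig6b, stood at 1134 ± 149 TPM in the libraries labelled Dnmt3a+/- and 1231 ± 247 TPM in WT libraries (SD, n = 4 each). Its log2 fold change was -0.15 (SE 0.15, edgeR adjusted p = 0.998). Mpig6b shared the high library, with 2917 CPM in WT replicate 1 and 1967 to 2099 CPM in the other WT libraries. Itga2b was also highest in WT replicate 1 (10224 CPM) and lowest in replicates 2 and 4 labelled Dnmt3a+/- (6358 and 6363 CPM). Ppbp, another platelet marker, instead peaked under the label Dnmt3a+/- (19757 CPM, against at most 18867 CPM in WT libraries).

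The SLAM family receptors Cd84 (chromosome 1, 171839697 to 171890718, plus strand) and Slamf1 (chromosome 1, 171767127 to 171801184, plus strand) are neighbours 38513 bases apart. Cd84 held 1217, 1379.8, 1169 and 1291 CPM in the libraries labelled Dnmt3a+/- replicates 1 to 4, against 1149, 1157, 1249.7 and 1303 CPM in WT replicates 1 to 4. The labels overlapped, with a log2 fold change of 0.06 (SE 0.09, edgeR adjusted p = 0.998), which was 0.0044 without the library labelled Dnmt3a+/- replicate 2. Slamf1, which also marks blood stem cells in mice, held 897, 1115, 933 and 1008 CPM in the libraries labelled Dnmt3a+/- replicates 1 to 4, against 816, 851, 891 and 982 CPM in WT replicates 1 to 4. All 4 libraries labelled Dnmt3a+/- lay above the WT median, but WT replicate 4 exceeded replicates 1 and 3 of the other label. The log2 fold change was 0.16 (SE 0.10, edgeR adjusted p = 0.998), which as a fold allows 0.956 to 1.30 at 95% and was 0.09 without the library labelled Dnmt3a+/- replicate 2. The log2 ratio of Cd84 to Slamf1 was 1.12 ± 0.0916 in the libraries labelled Dnmt3a+/- and 1.24 ± 0.0770 in WT libraries (exact two-sided permutation p = 0.114, adjusted over 3 ratios 0.343; the smallest p this design allows is 0.0286).

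Within the SLAM cluster these 2 genes held nearly all counts. Ly9, Cd244a, Cd48, Slamf6, Slamf7, Slamf8 and Slamf9, the other family members, and the SAP family adaptors Sh2d1a, Sh2d1b1 and Sh2d1b2, which bind ITSM tails, had at most 7 counts in a library. These 10 genes summed to 84 counts over the 8 libraries, where Cd84 alone had 18046 to 29737 counts in each. Sh2d1a and Sh2d1b2 had 0 counts in every library, where a count of 0 still permits an expected count of up to 3. Levels around Treml1 on chromosome 17 were likewise uneven. Treml2, a TREM-like receptor gene whose start lies upstream on the same strand, was at 814.5 ± 55.5 TPM in the libraries labelled Dnmt3a+/- and 795 ± 94.8 TPM in WT libraries (SD, n = 4 each; log2 fold change 0.0012, SE 0.09, edgeR adjusted p = 0.999). Treml4 and Trem2 had medians of 5.04 and 3.27 TPM over 8 libraries, while Trem1 and Trem3 had at most 2 counts in a library. These neighbours were named after their values were seen.

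The windows at the starts of the SLAM pair are shown because these neighbours gave the highest correlation among the pairs tested, which did not pass 0.05 after adjustment. They cover 250 bases before to 50 after the RefSeq start (GRCm38.p6), 5′ to 3′ along the gene, with each CpG, the dinucleotide that DNA methyltransferases act on, in capitals. Cd84 is at chr1:171839447-171839746 and Slamf1 at chr1:171766882-171767181, both on the plus strand.
Cd84: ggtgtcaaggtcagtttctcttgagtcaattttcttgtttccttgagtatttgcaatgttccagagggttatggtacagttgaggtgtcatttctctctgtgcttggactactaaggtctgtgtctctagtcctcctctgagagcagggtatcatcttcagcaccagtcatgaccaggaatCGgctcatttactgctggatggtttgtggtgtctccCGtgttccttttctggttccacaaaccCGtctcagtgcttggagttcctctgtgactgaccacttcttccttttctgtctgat
Slamf1: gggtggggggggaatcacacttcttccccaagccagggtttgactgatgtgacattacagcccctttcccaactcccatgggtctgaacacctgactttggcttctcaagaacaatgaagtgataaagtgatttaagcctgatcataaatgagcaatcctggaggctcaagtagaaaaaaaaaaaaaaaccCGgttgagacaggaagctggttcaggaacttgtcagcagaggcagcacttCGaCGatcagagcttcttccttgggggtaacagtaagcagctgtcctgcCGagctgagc
Both windows were poor in CpG, with 3 in Cd84 and 4 in Slamf1, against a median of 7 over 32851 promoter windows of the same length.

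**Figure D3:**
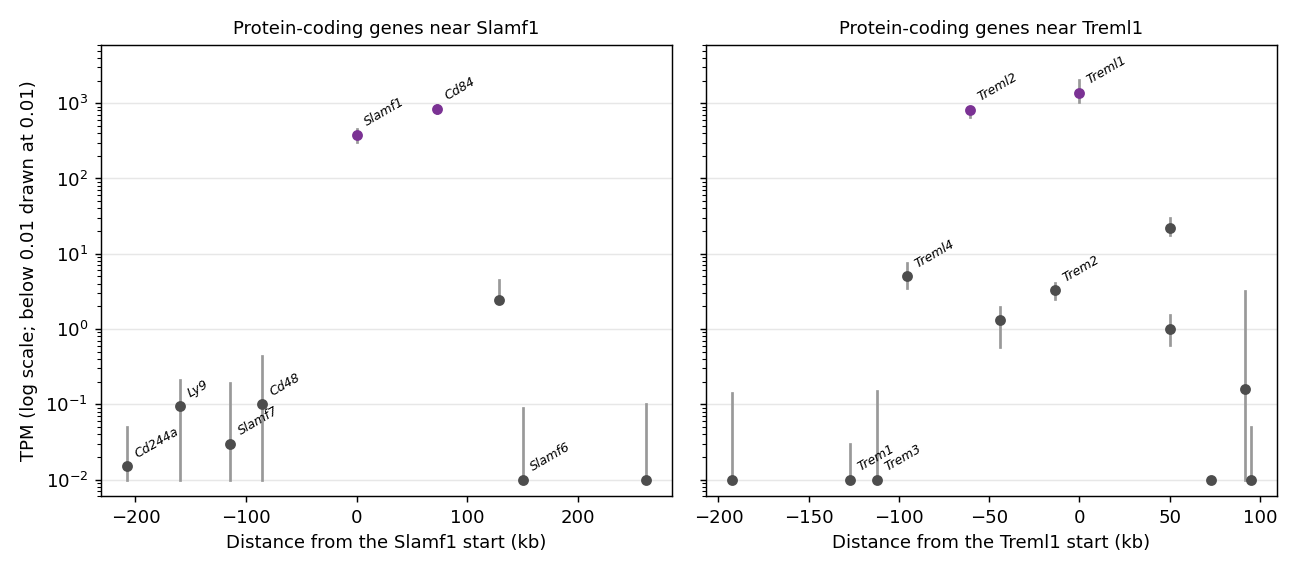
TPM on a log axis of protein-coding genes annotated within 200000 bases of Slamf1 (left) and Treml1 (right), by distance between gene starts in kb. Points are medians and lines the range over 8 libraries, with values below 0.01 drawn at 0.01, and Slamf1 with Cd84, and Treml1 with Treml2, stand more than 10-fold above every other gene shown.

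The tyrosine phosphatases of the ITIM pathway were present at very unequal levels. Ptpn11, the gene of SHP-2 (chromosome 5, 121130533 to 121191397, minus strand), held 259, 264, 263 and 256 TPM in the libraries labelled Dnmt3a+/- replicates 1 to 4, against 275, 278, 212 and 259.5 TPM in WT replicates 1 to 4. WT replicate 3, with the large mitochondrial share of counts, was the low one on this scale. It also had the lowest TPM of Pecam1, Ceacam1, Cd84, Slamf1 and Inpp5d, but not of Treml1 or Ptpn6. In CPM its Ptpn11 value (1200) was close to that of replicate 4 labelled Dnmt3a+/- (1201). In CPM the means were 1267 ± 48.0 in the libraries labelled Dnmt3a+/- and 1271 ± 80.4 in WT libraries (SD, n = 4 each). The log2 fold change was -0.0040 (SE 0.09, edgeR adjusted p = 0.999), a 95% interval of 0.874 to 1.14 as a fold, and its sign turned under other scalings. Ptpn6, the gene of SHP-1 (chromosome 6, 124720707 to 124738714, minus strand), is abundant in leukocytes. It had 3, 7, 3 and 12 counts in the libraries labelled Dnmt3a+/- replicates 1 to 4, against 14, 10, 21 and 4 counts in WT replicates 1 to 4. In TPM, Ptpn11 exceeded Ptpn6 by a factor of 99.2 (WT replicate 3) to 1993 (the library labelled Dnmt3a+/- replicate 1). These factors rest on 3 to 21 Ptpn6 counts, and Ptpn6 TPM did not track counts closely. WT replicate 3 had 21 counts at 2.14 TPM, and WT replicate 1 had 14 at 0.50 TPM. Replicates 1 and 3 labelled Dnmt3a+/- each had 3 counts, at 0.13 and 0.38 TPM.

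The summed Ptpn6 counts were 25 (95% exact Poisson interval 16.2 to 36.9) in the libraries labelled Dnmt3a+/- and 49 (36.3 to 64.8) in WT libraries, an interval that covers counting error only. In CPM, WT replicates 1 to 3 (0.892, 0.541 and 1.32) lay above every library labelled Dnmt3a+/- (0.182 to 0.521). WT replicate 4, at 0.261 CPM, lay within that range, so the labels overlapped. In TPM, WT replicates 2 and 4 (0.31 and 0.14) lay within the range of the other label (0.13 to 0.38). Without a filter on low counts the Ptpn6 log2 fold change was -1.11 (SE 0.574, edgeR unadjusted p = 0.0604, adjusted p = 0.793). With DESeq2 it was -1.15 (SE 0.665, unadjusted p = 0.085, adjusted p = 0.999). Ptprc, the CD45 gene of leukocytes and the target of the bead removal, summed to 66 counts in the libraries labelled Dnmt3a+/- and 42 in WT libraries, and averaged 0.253 ± 0.146 TPM and 0.210 ± 0.198 TPM, against 0.275 ± 0.107 TPM and 0.773 ± 0.923 TPM for Ptpn6 (SD, n = 4 each). The part of leftover leukocytes in the Ptpn6 counts was not tested. The log2 ratio of Ptpn6 to Ptpn11 averaged -9.49 ± 0.458 in the libraries labelled Dnmt3a+/- and -8.72 ± 1.52 in WT libraries (TPM with 0.1 added, exact two-sided permutation p = 0.429, adjusted over 3 ratios 0.629). The difference of -0.77 was -0.05 without WT replicate 3, which held 21 of the 49 WT counts, and -1.22 without WT replicate 4. With CPM in place of TPM the difference was -0.884 (exact two-sided permutation p = 0.171).

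The start windows of the phosphatase pair, in the same format, are shown because the pair differed so far in level. Ptpn11 is at chr5:121191348-121191647 and Ptpn6 at chr6:124738660-124738959, both on the minus strand.
Ptpn11: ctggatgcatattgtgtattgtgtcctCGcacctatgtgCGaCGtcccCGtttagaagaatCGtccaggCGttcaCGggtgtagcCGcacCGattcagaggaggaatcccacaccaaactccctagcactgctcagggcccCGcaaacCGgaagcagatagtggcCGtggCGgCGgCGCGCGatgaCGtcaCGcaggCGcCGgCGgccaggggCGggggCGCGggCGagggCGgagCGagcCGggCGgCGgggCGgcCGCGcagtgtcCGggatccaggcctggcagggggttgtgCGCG
Ptpn6: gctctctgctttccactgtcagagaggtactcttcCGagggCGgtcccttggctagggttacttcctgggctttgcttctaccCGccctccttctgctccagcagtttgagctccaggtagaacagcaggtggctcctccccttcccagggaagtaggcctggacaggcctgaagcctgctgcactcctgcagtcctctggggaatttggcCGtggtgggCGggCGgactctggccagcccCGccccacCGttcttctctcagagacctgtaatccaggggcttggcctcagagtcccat
The Ptpn11 window held 37 CpG, more than 94.4% of all windows, and the Ptpn6 window held 8, near the median. Windows were found for 7 of the 8 genes, and Inpp5d held 6 CpG, Treml1 held 5 and Ceacam1 held 3. The GATA motif in the spelling AGATAA, read on both strands, was in 0 of the 7 and in 11.2% of all windows. Other spellings were not searched, and the Slamf1 window printed above holds TGATAA, so this does not show that GATA motifs are absent. The ETS motif CCGGAAG was in the Ptpn11 window and in 8.86% of all windows, and the RUNX motif TGTGGT was in the Cd84 window and in 16.8%. A match of letters describes the window and is not a bound site, and methylation was not measured in these samples.

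Inpp5d, the gene of SHIP-1 (chromosome 1, 87620312 to 87720507, plus strand), held 131, 139, 145 and 139.6 CPM in the libraries labelled Dnmt3a+/- replicates 1 to 4, against 123, 141, 118 and 134 CPM in WT replicates 1 to 4. All 4 libraries labelled Dnmt3a+/- lay above the WT median, within a range that WT replicates 2 and 4 reached. The log2 fold change was 0.11 (SE 0.09, edgeR adjusted p = 0.998). Its relative Inppl1, the gene of SHIP-2, had 4 to 24 counts in the libraries labelled Dnmt3a+/- and 4 to 14 in WT libraries, at 0.445 ± 0.246 TPM and 0.635 ± 0.576 TPM (SD, n = 4 each). Inpp5d stood at 47.2 ± 7.31 TPM and 43.6 ± 9.52 TPM under the same labels. Inpp5d had the least stable length-corrected value among the 7. The ratio of its estimated count to its TPM, which follows the mean length of the transcripts that reads were assigned to, ranged over 0.391 on the log2 scale after each library was centred. That range was larger than in 95.2% of 1343 genes with at least 500 counts in every library (median 0.0831), whereas Ptpn11 had 0.032, Slamf1 0.0318 and Treml1 0.0344. High and low libraries occurred under both labels, so TPM differences of Inpp5d carry this extra uncertainty, and 11 transcripts are annotated for the gene.

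**Figure D4:**
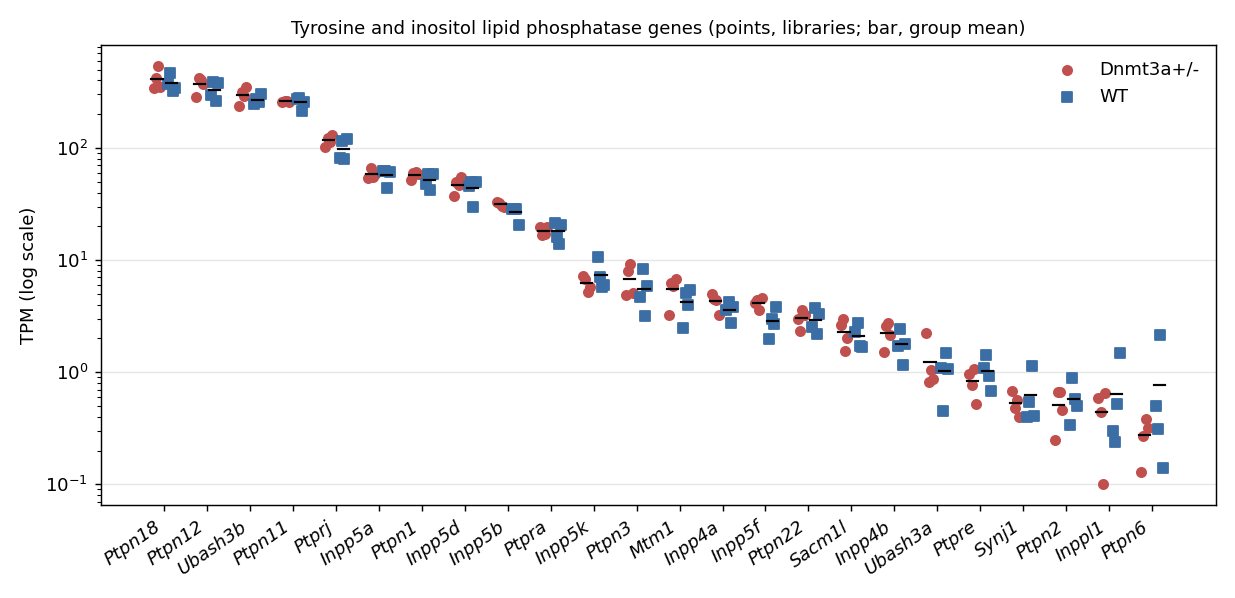
TPM on a log axis of 24 tyrosine and inositol lipid phosphatase genes with a mean of at least 0.5 TPM, with circles for libraries labelled Dnmt3a+/-, squares for WT libraries and bars at group means. Ptpn18, Ptpn12, Ubash3b and Ptpn11 lie above 200 TPM, and Inppl1 and Ptpn6 are among the lowest.

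Seen against its family, Ptpn11 was among the leading phosphatase transcripts. Ptpn18, a phosphatase of the PEST family, was at 414 ± 94.1 TPM in the libraries labelled Dnmt3a+/- and 377 ± 62.5 TPM in WT libraries, and its relative Ptpn12 (PTP-PEST) at 372 ± 61.1 and 330.4 ± 62.04 TPM under the same labels (SD, n = 4 each). Ubash3b, the gene of TULA-2, which dephosphorylates Syk, was at 298 ± 46.3 TPM and 270.1 ± 23.3 TPM. Ptprj, the receptor phosphatase CD148 that activates Src family kinases in platelets, was at 117 ± 11.8 TPM and 98.8 ± 21.3 TPM (log2 fold change 0.22, SE 0.12, edgeR adjusted p = 0.998). Of 19 other tyrosine phosphatase genes 12 were tested and 0 were called, with 7 positive fold changes and a median of 0.04. Of 14 other phosphoinositide phosphatases 12 were tested and 0 called, with 8 positive and a median of 0.145. Inpp4b was the sole gene there at an unadjusted p under 0.05 (log2 fold change 0.33, SE 0.15, edgeR adjusted p = 0.986, with 0.279 to 0.415 when 1 library was left out), at 8.79 ± 1.04 CPM in the libraries labelled Dnmt3a+/- and 6.98 ± 0.76 CPM in WT libraries.

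Other inhibitory receptors were scarce apart from Mpig6b. Of 24 listed, 8 were tested and 0 were called (5 positive and 3 negative fold changes, median 0.28). By level, Clec2d came next in that list after Mpig6b, though its role as an inhibitory receptor was not checked. Named after its values were seen, Clec2d was at 8.80 TPM in the libraries labelled Dnmt3a+/- and 7.36 TPM in WT libraries. Pirb, a paired receptor of leukocytes that is also reported on platelets, had 1 to 32 counts in the libraries labelled Dnmt3a+/- and 1 to 16 in WT libraries. Fcgr2b, the inhibitory Fc receptor, was the 1 gene of that list at an unadjusted p under 0.05, at 0.447 ± 0.167 CPM in the libraries labelled Dnmt3a+/- and 1.95 ± 1.63 CPM in WT libraries (log2 fold change -2.08, SE 0.80, edgeR adjusted p = 0.889). It was at 0.462, 0.433, 0.243 and 0.651 CPM in the libraries labelled Dnmt3a+/- replicates 1 to 4, against 0.0, 2.22, 3.95 and 1.63 CPM in WT replicates 1 to 4. Without WT replicate 1, where it had 0 counts, the log2 fold change was -2.49 and edgeR adjusted p = 0.0177, and it was -1.49 without WT replicate 3 (edgeR adjusted p = 0.994). Fcgr2b is also made by liver endothelium, and the 13 hepatocyte markers took 0.000302% to 0.0142% of counts in the libraries labelled Dnmt3a+/- and 0.00189% to 0.155% in WT libraries. Their part in that value was not tested.

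The kinases that phosphorylate ITIMs and the proteins that dock beside the phosphatases were readily measured. Lyn, the Src family kinase tied to ITIM phosphorylation, was at 260.2 ± 11.5 TPM in the libraries labelled Dnmt3a+/- and 231 ± 31.4 TPM in WT libraries (SD, n = 4 each; log2 fold change 0.14, SE 0.09, edgeR adjusted p = 0.998). Csk, which restrains Src kinases, was at 66.1 ± 7.77 TPM and 66.2 ± 14.6 TPM under the same labels. The docking proteins Gab2 and Dok1 were at 11.7 ± 0.84 and 17.0 ± 2.40 TPM in the libraries labelled Dnmt3a+/-, against 11.4 ± 1.71 and 16.2 ± 3.27 TPM in WT libraries. Of 23 genes in that list 16 were tested, with 12 positive and 4 negative fold changes (median 0.05), and of 13 ITAM signalling genes 13 were tested, with 7 positive and 6 negative (median 0.08). In these lists 0 genes were called and 0 had an unadjusted p under 0.05.

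Across libraries, no pair of genes correlated beyond the adjusted threshold of 0.05, and the strongest values joined Cd84, Slamf1 and Treml1. Of 21 pairs among the 7 tested genes, the closest was Cd84 with Slamf1 in log2 CPM over 8 libraries (Pearson r = 0.907, exact permutation p = 0.00241, adjusted over 21 pairs 0.0505; Spearman rho = 0.881, exact permutation p = 0.00724, adjusted 0.152). Without the 2 libraries farthest from the Cd84 median, r was 0.758. Treml1 and Slamf1 gave r = -0.857 (exact permutation p = 0.00697, adjusted 0.0732) and rho = -0.786 (exact permutation p = 0.0279, adjusted 0.193). Without the 2 libraries farthest from the Treml1 median, that r was -0.625, and without WT replicate 1 it was -0.804. Treml1 and Cd84 gave r = -0.776 (exact permutation p = 0.0227, adjusted 0.159) and rho = -0.81 (exact permutation p = 0.0218, adjusted 0.193), and r was -0.507 without the 2 libraries farthest from the Treml1 median. The labels name no batch within which these values could be recomputed. The library labelled Dnmt3a+/- replicate 2 had the lowest Treml1 and the highest Cd84 and Slamf1, while WT replicate 1 had the highest Treml1 and the lowest Cd84 and Slamf1.

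**Figure D5:**
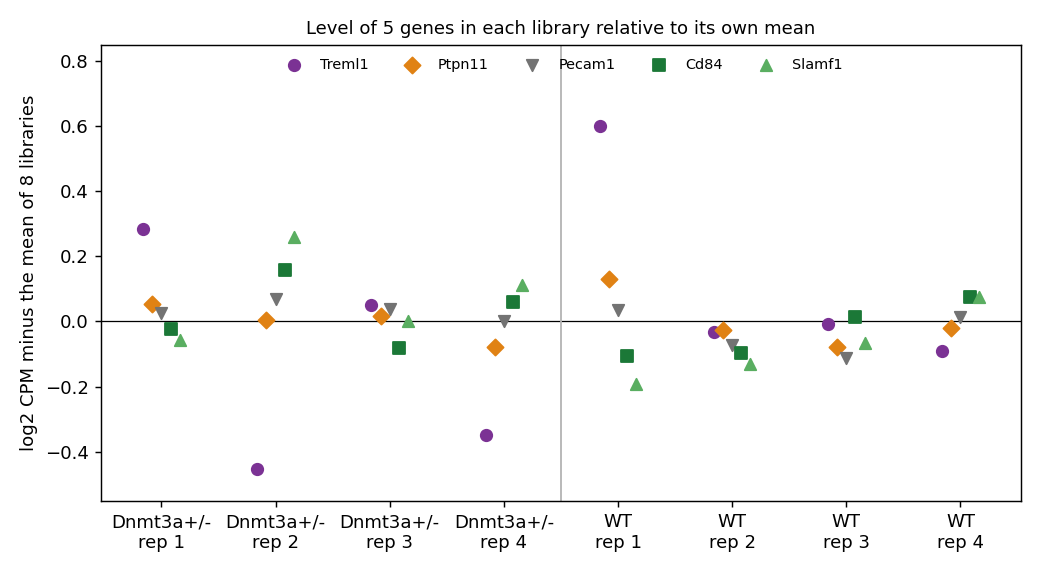
Log2 CPM of 5 genes in each library minus the mean of that gene over 8 libraries. Treml1 (circles) spans -0.452 in the library labelled Dnmt3a+/- replicate 2 to 0.599 in WT replicate 1, and Slamf1 (triangles) lies at 0.258 and -0.193 in those libraries.

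For each tested gene, the 1 other gene most alike over the 8 libraries was taken from 2591 genes with a mean of at least 10 CPM, by the highest Pearson r of log2 CPM. These values describe the search and carry no test. Treml1 was most like Itgb2, the integrin beta chain of leukocytes (r = 0.996, rho = 0.929, and r = 0.992 without WT replicate 1). Slamf1 was most like Pnpla8 (r = 0.982, rho = 1.0), a phospholipase gene, and Cd84 like Sdcbp (r = 0.98, rho = 0.976), the gene of the adaptor syntenin. Ptpn11 was most like Ostf1 (r = 0.98, rho = 0.976), Pecam1 like the COP9 signalosome gene Cops8 (r = 0.966, rho = 0.929), Inpp5d like Fnbp1 (r = 0.945, rho = 0.881) and Ceacam1 like Syne1 (r = 0.907, rho = 0.976). The libraries share depth and composition across all of these genes.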

How the data were processed

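The submitters' processing notes name build mm10 and the tools RSEM, STAR, cutadapt and DESeq2, without saying in which role, order or version. The release of the annotation and whether counting used strand are not stated there. The authors deposited estimated counts, written as whole numbers, and TPM values, for 55487 genes. Each library was counted as 1 replicate, since no pair of libraries came close to sampling noise (chi-square over its degrees of freedom was at least 12.2). The labels call the samples biological replicates.

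Estimated counts were rounded, which changed none, and tested with edgeR 4.0.16 under R 4.3.3 (TMM factors, filterByExpr by group with minimum count 10 and minimum total 15, glmQLFit and glmQLFTest), with Benjamini-Hochberg adjustment over 7362 genes at 0.05. Standard errors were derived by dividing the fold change by the root of F, and 95% intervals from the t distribution of the fit. Depths of 15185218 to 22160394 counts put the 7 tested genes at 1878 counts or more in every library. Alternatives were DESeq2 1.42.0, limma 3.58.1 on log2 TPM with 1 or 0.1 added, a robust fit, upper-quartile or RLE factors, no filter on low counts, the replicate number as a block, each library left out, and replicates 3 and 4 labelled Dnmt3a+/- left out. Scripts were tested on simulated data. Ratios within a library used TPM with 0.1 added and an exact permutation test over 70 arrangements, adjusted over 3 ratios.

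The 8 genes and all lists were chosen with earlier results of these data known. The rule for named genes took the 8, Dnmt3a, a fixed set of related genes given as levels (1 of them is not reported here), up to 3 genes per list and direction at an unadjusted p under 0.05, and the most alike gene. Coordinates are from GENCODE M21 (GRCm38, also called mm10), which holds 55141 of the identifiers, and 86 identifiers without a symbol in the tables were looked up in a table of gene names. Antisense genes overlap Ceacam1 and Ptpn6, at up to 0.20 TPM and at 0 TPM.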

Additional observations from a re-analysis of the deposited data

Results flagged for a closer look

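Among 50 groups of 4 values examined, of which chance flags about 1 in 20, 2 held a library far from the other 3. Treml1 was at 2058 CPM in WT replicate 1, against 1275 to 1350.2 CPM in the other WT libraries. Mpig6b was at 2917 CPM in WT replicate 1, against 1967 to 2099 CPM in the other WT libraries. The same library held 2.03% of its counts in red cell markers, whose part in these values was not tested.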

How the results depend on the processing

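The count of the 8 genes past the threshold was 0 under every alternative run. The count over all genes moved from 0 to 15 with DESeq2, 250 without a filter on low counts, 1 with a robust fit, 1 without replicates 3 and 4 labelled Dnmt3a+/-, and 0 to 135 when 1 library was left out (135 without WT replicate 1). Pecam1, Cd84, Slamf1, Inpp5d and Treml1 kept their direction in all 17 alternatives, with Treml1 from -0.37 (without the library labelled Dnmt3a+/- replicate 1) to -0.04 (without WT replicate 1). Without the library labelled Dnmt3a+/- replicate 2, Cd84 had 0.0044 and Slamf1 0.0877, their lowest values, and the highest were 0.11 and 0.218. Pecam1 ran from 0.0436 to 0.102 and Inpp5d from 0.071 to 0.155. The log2 ratio of Ptpn6 to Ptpn11 ran from -1.22 to -0.0508 when 1 library was left out (-0.0508 without WT replicate 3). The Ceacam1 log2 fold change, near 0, turned to 8.9e-05 with upper-quartile factors, 0.0462 and 0.0467 on log2 TPM with 1 and 0.1 added, and ran from -0.0752 to 0.0094 when 1 library was left out. Ptpn11 turned to 0.017 with upper-quartile factors, 0.00059 with DESeq2, 0.0101 without a filter, 0.0328 and 0.0329 on log2 TPM, 0.0379 without replicates 3 and 4 labelled Dnmt3a+/-, and ran from -0.0287 to 0.0396 when 1 library was left out. The cause was not tested. The log2 ratio of Ceacam1 to Ceacam2 turned to -0.251 (exact permutation p = 0.667) without replicates 3 and 4 labelled Dnmt3a+/-.

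With the replicate block edgeR called 0 of all genes and 0 of the 8, and Treml1 alone had an unadjusted p under 0.05 (adjusted 0.721). Libraries with the same number showed no shared deviation (correlations -0.168 to 0.158, against -0.241 to 0.226 for unlike numbers). Such values cannot decide whether the numbers pair samples by litter or batch, which the labels do not state. Depth limits Ptpn6, Inppl1, Pirb and the SLAM list, whose counts per library are too few to compare.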
